A study of Mus musculus with 20 samples.

Results

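Nuclei of meningeal and perivascular fibroblasts were sought among hippocampal nuclei of 20 mice, profiled by single nuclei RNA-sequencing with 1 library per mouse. A nucleus was a member when its UMIs (unique molecular identifiers, counted RNA molecules) of Col1a2, Slc6a13, Bnc2, Col1a1 and Ranbp3l summed to at least 3 over at least 2 of these 5 genes. It could hold at most 1 UMI of the mural genes Atp13a5 and Abcc9, at most 1 of endothelial Flt1, at most 1 of the neuronal genes Gad1, Gad2, Prox1 and Fibcd1, and 0 of the glial genes Mog, Aqp4 and Csf1r. This gave 2943 of 160777 nuclei (1.83%). The nuclei were thus chosen by their measured levels of these genes, which are given below as a description only. At the edge of the rule, 689 members held 3 UMIs of the 5 genes, and 936 nuclei that met the other criteria held 2 and were left out.

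All mice were males of 4.5 to 5.5 months, congenic to C57BL/6J. They were APP/PS1 mice (APPSwe/PS1ΔE9, called fAD), whose transgenes are driven by the mouse prion (Prnp) promoter, or their WT littermates. Mice were awake (WT-Awake, 6 mice; fAD-Awake, 3 mice), under general anesthesia with isoflurane (GA) of 5% lowered to 1.5% for 3 h (WT-GA, 3 mice; fAD-GA, 4 mice), or anesthetized for 3 h with ketamine (150 mg/kg) and xylazine (12 mg/kg) (WT-Ketamine, 2 mice; fAD-Ketamine, 2 mice). Mice carry the numbers of their labels, which were divided here into 5 runs (1 to 4, 10 to 13, 14 to 17, 18 to 20 and 25 to 29). No label names these runs as batches. The methods describe batches that held samples of each awake and isoflurane group, but not which mice shared one. All 4 of these groups are present once in the runs 1 to 4 and 14 to 17. The 4 ketamine mice (25 to 28) share their run with 1 other mouse, awake mouse 29.

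Fibroblasts of the meninges lie in the dura, the arachnoid and the pia, and follow penetrating vessels into the brain between the vessel wall and the glial limit. They lay down collagens and laminins of the basement membranes that surround the brain. The arachnoid barrier cells are joined by tight junctions and carry pumps and solute transporters that clear the cerebrospinal fluid, and pial and arachnoid fibroblasts are sources of retinoic acid, BMPs and IGF2 for the tissue beneath.

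Libraries held 4743 to 10877 nuclei with a median of 1235 to 3169 UMIs per nucleus. The members summed to 4133899 UMIs, with a median of 850 per nucleus against 1625 for all nuclei, and numbered 5 to 820 per mouse. The share of mitochondrial UMIs was 0.939% to 1.78% for mice 1 to 4, against 0.0353% to 0.336% for all later numbers. Pairs of libraries shared 5 to 35 barcodes, 137 members had a barcode found in another library as well, and 1 barcode was a member in more than 1 library. Prnp, whose sequences the transgenes carry, went against 4 genotype labels in nuclei that are not members. It stood at 63.5, 74.4 and 99.6 CPM (UMIs of the gene scaled to a common total per library) in the libraries labelled fAD of mice 11, 17 and 20, and at 196 CPM in the library labelled WT of mouse 14. The other libraries labelled fAD held 187 to 435 CPM and the other libraries labelled WT 43.4 to 149 CPM. Genotype is therefore given as labelled, and the counts of genes called and the shares of nuclei by genotype also without these 4 mice.

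The members were not 1 population. Clustering them gave 19 clusters, which fell into 3 kinds. In 3 clusters with 694 nuclei (23.6% of the members, from all 20 mice), listed fibroblast, arachnoid, pial or dural markers outside the rule were among the leading genes. These are called fibroblast-like. In 7 clusters with 1635 nuclei (55.6%), nearly all nuclei came from 1 library or from 1 run of mice. The other 9 clusters held 614 nuclei (20.9%). In 6 of them (275 nuclei) listed markers of another cell class were among the 10 leading genes, in 3 (339 nuclei, led by Sgcz, Adarb2 and Galntl6) no listed marker was, and 161 of the 614 nuclei (26.2%) were scored as doublets, against 5 of the fibroblast-like nuclei. The largest fibroblast-like cluster (539 nuclei) also held 1 marker of another class among its 10 leading genes, the mural marker Vtn. Mice 25 to 29 gave 2148 of all members (73%), but 164 of the 694 fibroblast-like nuclei and 1540 of the 1635 nuclei in clusters of 1 library or run. The label of meningeal and perivascular fibroblasts is therefore used for the 694 nuclei, whose clusters were named by listed fibroblast, arachnoid, pial or dural markers. In cluster 17 (25 nuclei) the listed markers among the 10 leading genes were the arachnoid barrier markers Dpp4 and Cdh1. The other nuclei are named here by their library and leading genes.

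The 16 listed fibroblast markers that the rule did not use summed to 7009 CPM in the fibroblast-like nuclei, to 3550 CPM in the clusters of 1 library or run, to 906 CPM in the other 9 clusters and to 120 CPM in nuclei that are not members. The same markers had served to name the clusters, so these sums are a description. The 5 genes of the rule summed to 5019 CPM in the fibroblast-like nuclei and to 8572 CPM in the clusters of 1 library or run. Of the genes of the rule, Ranbp3l was detected in 74.8% and Slc6a13 in 49% of fibroblast-like nuclei, but in 1.53% and 3.12% of the nuclei in clusters of 1 library or run, which the rule had taken through Col1a2 (95.4%), Bnc2 (82.5%) and Col1a1 (62.1%). The fibroblast-like clusters differed in this. Ranbp3l and Slc6a13 were detected in 90.9% and 62.7% of nuclei in fibroblast-like cluster 1, but in 6.92% and 0% in fibroblast-like cluster 7. Cluster 7 held Col1a2 in 84.6% and Bnc2 in 97.7% of its nuclei, as the clusters of 1 library or run did at 95.4% and 82.5%. Ribosomal protein genes took 7.39% of the UMIs in the clusters of 1 library or run, 1.09% in the fibroblast-like nuclei and 0.42% in nuclei that are not members.

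**Figure D1:**
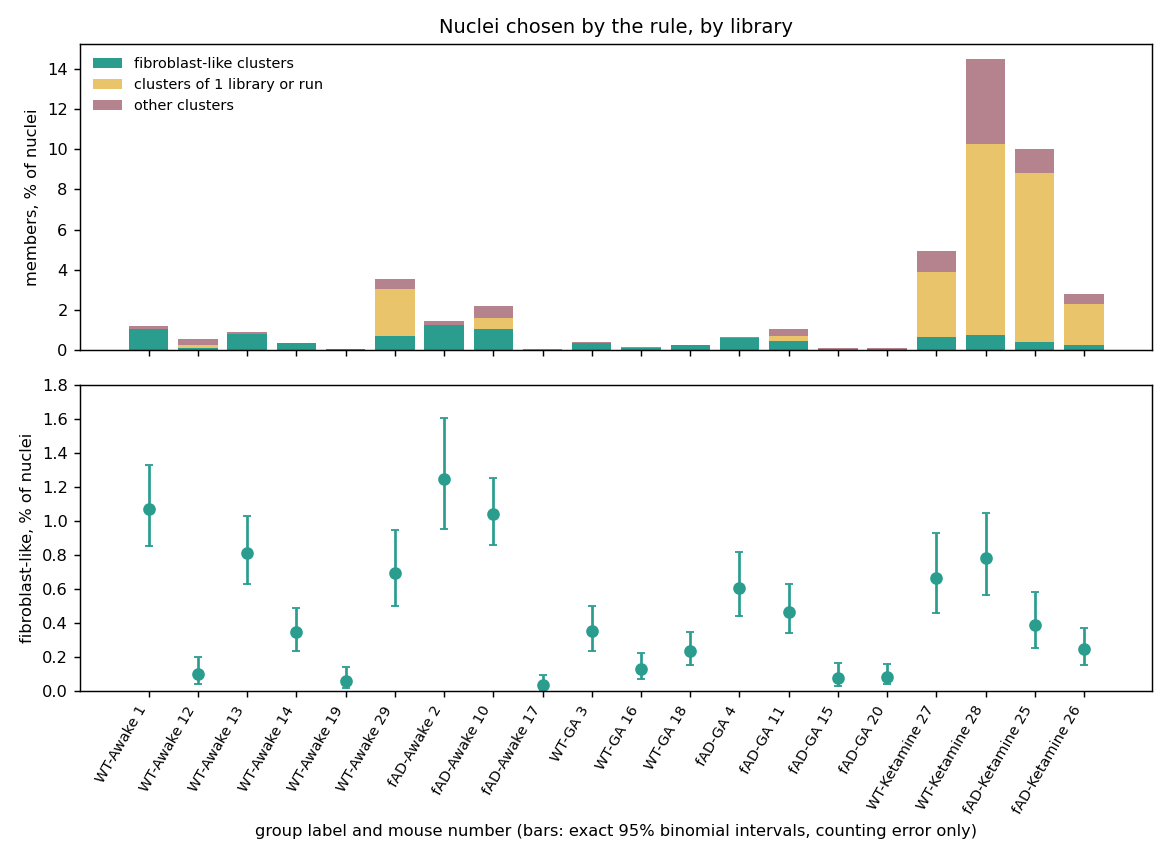
Upper panel: members as a percentage of all nuclei of each library, stacked by the 3 kinds of cluster; lower panel: the fibroblast-like nuclei alone with exact 95% binomial intervals. Libraries are ordered by group label and mouse number. Members reach 14.5% in mouse 28, where 535 of the 820 lie in clusters of 1 library or run and 241 in the other clusters. Fibroblast-like nuclei lie between 0.0315% and 1.24% in all libraries.

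Clusters of 1 library each had their own leading genes. The 529 nuclei of cluster 2, from mouse 28, were led by the secreted Wnt antagonists Sfrp1 (5616 CPM) and Sfrp2 (30812 CPM) with Col8a1 and Egfl6, and held 6602 CPM of Col1a2. The 452 nuclei of cluster 3, from mouse 25, were led by Cmss1, AY036118, Lars2 and the immediate early gene Fos. Clusters 4 (184 nuclei, mouse 26) and 5 (174 nuclei, mouse 27) shared the lubricating glycoprotein Prg4 among their leading genes, beside Dnase1l3 in the first and Igfbp5 in the other. Cluster 8 (127 nuclei, mouse 29) was led by Clec3b and Postn, a matricellular protein, and cluster 11 (93 nuclei, mice 10 to 12) by Acacb and Fam227b. Vimentin (Vim), an intermediate filament of mesenchymal cells, stood at 5835 to 22783 CPM in the 5 largest of the clusters from mice 25 to 29, and at 447 CPM in fibroblast-like cluster 1. Lama1 stood at 0 to 10.9 CPM and Slc6a20a at 0 to 35 CPM in the same 5 clusters, against 820 and 2694 CPM in cluster 1.

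The fibroblast-like nuclei themselves held 3 clusters. Cluster 1 (539 nuclei) was led by Slc6a20a, Slc7a11, Ranbp3l, Colec12, Vtn, Apod, Lama1, Cp, Slc6a13 and Bmp6. Of these Vtn is listed as a mural marker, at 2124 CPM in mural nuclei and 722 CPM in the pooled fibroblast-like nuclei. Cluster 7 (130 nuclei, from all 20 mice) was led by Slc47a1, a multidrug efflux exchanger, with the calcification inhibitor Mgp, Fxyd5, Abcc4, Slc4a10, Col25a1 and Slc26a7. Cluster 17 (25 nuclei from 14 mice) was led by the surface peptidase Dpp4, Ahnak2, Cd55, Cubn and Cdh1, the epithelial cadherin of the arachnoid barrier. Slc6a13 stood at 953 CPM in cluster 1, at 0 in cluster 7 and at 65.6 CPM in cluster 17, whereas Bnc2 stood at 626, 3248 and 3127 CPM. Slc47a1 was at 6.57, 1359 and 21.9 CPM in the 3 clusters and Dpp4 at 29.6, 61.6 and 1312 CPM. Lama1, a laminin chain of pial fibroblasts, was at 820, 20.5 and 21.9 CPM, and the retinoic acid enzyme Aldh1a2 at 427, 16.4 and 43.7 CPM. Cluster 1 thus carried Lama1, which is on the list of pial and perivascular fibroblast markers. Cluster 17 carried the arachnoid barrier markers Dpp4, Cdh1 (656 CPM) and Cldn11 (700 CPM). Cluster 7 carried a mixture of Slc47a1, listed as arachnoid, and Mgp (3375 CPM), listed as dural. These genes defined the clusters and were not tested between them. With clusters drawn at Leiden resolution 1, the dural-listed Ppp1r1a was among the leading genes of a cluster of 144 nuclei, beside Slc6a20a, Ranbp3l and Slc13a4.

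**Figure D2:**
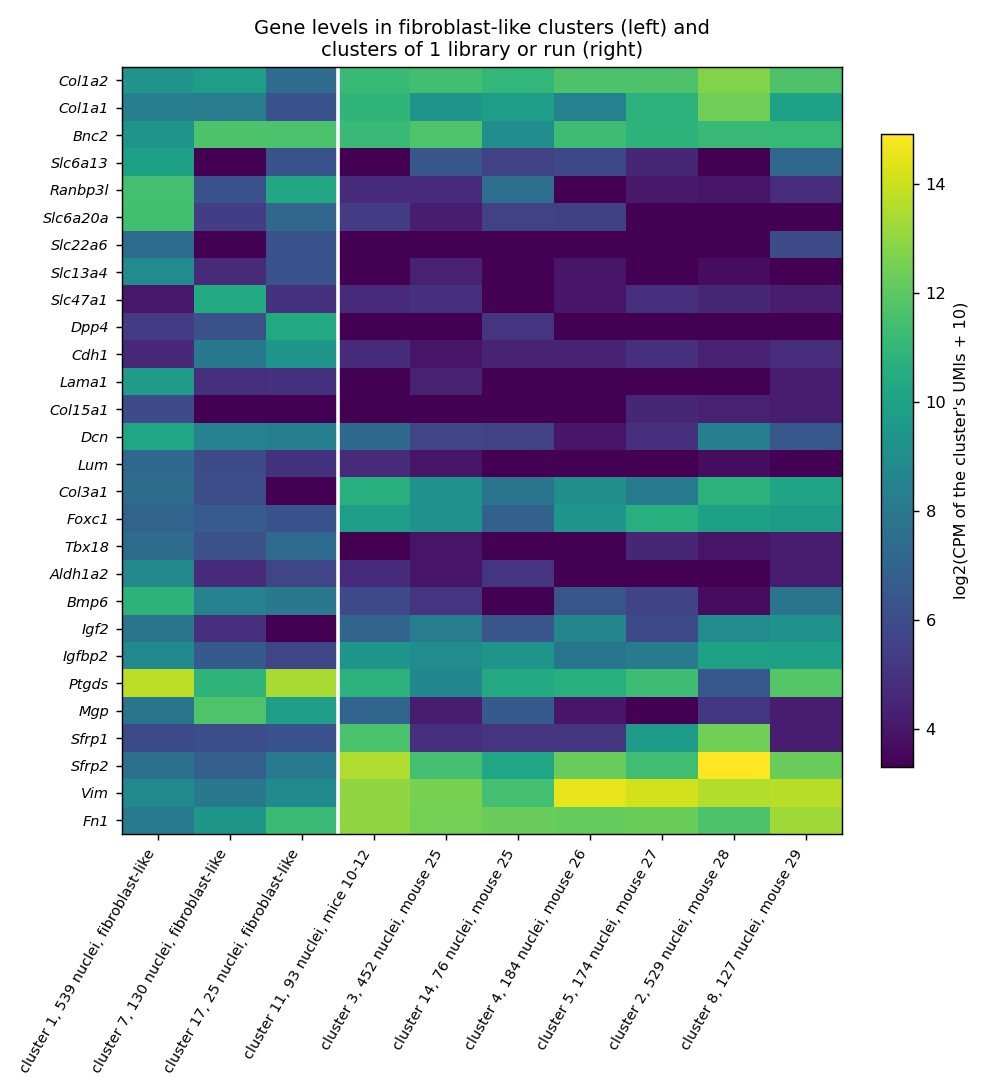
Level of 28 genes, as log2 of the cluster's CPM plus 10, in the 3 fibroblast-like clusters (left of the white line) and the 7 clusters of 1 library or run (right). Slc6a20a, Slc13a4, Lama1 and Aldh1a2 are high in cluster 1, Slc47a1 and Mgp in cluster 7, Dpp4 and Cdh1 in cluster 17, and Col1a2, Foxc1, Sfrp2, Vim and Fn1 in the clusters of 1 library or run.

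Levels in the fibroblast-like nuclei are given per mouse for the 15 mice with at least 10 of them, as the lowest, median and highest CPM, beside the pooled level in nuclei that are not members. Among the solute transporters, Slc6a20a, a proline transporter, stood at 599, 1702 and 2848 CPM, against 23.4 CPM in other nuclei and 934 CPM in mural nuclei. Slc6a13, which takes up GABA and taurine and belongs to the rule, stood at 345, 565 and 1125 CPM (2.09 CPM in other nuclei). Slc7a11, the cystine and glutamate exchanger, stood at 490, 1789 and 3851 CPM (31.6 CPM). The sulfate carrier Slc13a4 stood at 127, 303 and 504 CPM (4.2 CPM), the organic anion transporter Slc22a8 at 48.9, 188 and 553 CPM (3.1 CPM, and 210 CPM in endothelial nuclei). Of all 37 listed transporters, with no filter on UMIs, 24 were at least 2-fold above the other nuclei and 2, Slc7a14 and Slc4a7, at least 2-fold below, with a pseudocount of 10 CPM. Over all 28959 genes with a UMI 6.95% were as far above and 6.05% as far below. With this pseudocount a gene near 0 CPM in both kinds of nuclei cannot differ 2-fold. The median log2 difference was -0.0041 over these genes and 0.587 over the 3967 genes with at least 50 UMIs in the fibroblast-like nuclei. It was 2.9 over the 25 listed transporters with as many UMIs, of which 21 were at least 2-fold above and 1 below. The nuclei were themselves grouped by their gene levels (1500 variable genes), so these counts are a description.

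Of all 30 listed collagens 19 were at least 2-fold above the other nuclei. The basement membrane chains Col4a5 (98.2, 317 and 563 CPM; 9 CPM in other nuclei) and Col4a6 (54.4, 284 and 822 CPM; 3.7 CPM) were among them, while Col4a1 was higher in endothelial nuclei (338 CPM) than in the pooled fibroblast-like nuclei (62 CPM). Of 16 laminin and basement membrane genes 9 were at least 2-fold above and 1, Fras1, at least 2-fold below, with Lama1 at 48.9, 473 and 1340 CPM (4.39 CPM) and Lama2 at 337, 943 and 1515 CPM (99.4 CPM). Of 50 proteoglycans, elastic fibre genes and matrix enzymes, 36 were at least 2-fold above and 2, Adamts17 and Spon1, at least 2-fold below. The collagen-binding proteoglycan decorin (Dcn) stood at 230, 927 and 1572 CPM (17.3 CPM). Every one of the 15 mice lay above the other nuclei for each matrix gene named here with its 3 values.

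Secreted signals formed another group. Ptgds, which makes prostaglandin D and carries lipophilic molecules in the cerebrospinal fluid, was the most abundant of the genes named in these nuclei, at 4233, 8760 and 33325 CPM (239 CPM). Bmp6 stood at 606, 1328 and 3202 CPM (14.4 CPM), Bmp5 at 104, 252 and 553 CPM (4.6 CPM) and Bmp7 at 0, 136 and 364 CPM (2.8 CPM), and 20 of 32 listed BMP, TGF-beta and Wnt genes were at least 2-fold above. Of 17 retinoic acid genes 10 were as far above. Among them were Aldh1a2 (90.7, 308 and 790 CPM; 1.4 CPM), Aldh1a1, the plasma retinol carrier Rbp4, Cyp1b1 and the receptor Rarb (51.9, 255 and 519 CPM; 20.1 CPM). Of the IGF and growth factor list 17 of 28 were at least 2-fold above, with Igf2 at 48.9, 98.2 and 553 CPM (3.8 CPM) and its binding protein Igfbp2 at 51.9, 255 and 637 CPM (12.5 CPM).

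Among transcription factors, 27 of 44 listed were at least 2-fold above the other nuclei and 2, Zeb2 and Runx2, at least 2-fold below. Foxp1 stood at 1505, 2240 and 4163 CPM (432 CPM), Foxp2 at 295, 743 and 1935 CPM (29 CPM), Zic1 at 220, 345 and 632 CPM (8.1 CPM), Foxd1 at 104, 237 and 526 CPM (1.7 CPM) and Tbx15 at 48.8, 210 and 562 CPM (4.7 CPM). Foxc1, needed for the formation of the meninges, was lower, at 26.1, 107 and 256 CPM (7.5 CPM), and stood at 600 to 1574 CPM in the 5 largest clusters of mice 25 to 29. Marker sums of other cell classes in the fibroblast-like nuclei ran over the mice from 73.2 to 589 CPM for endothelial, from 97.9 to 1824 CPM for mural, from 24.4 to 2408 CPM for choroid plexus and from 0 to 607 CPM for excitatory neuron markers, against 138, 69.4, 344 and 3781 CPM in nuclei that are not members.

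How often fibroblasts were recovered was compared over mice with permutation tests, adjusted over 3 comparisons. Members made up 2.81%, 4.95%, 10% and 14.5% of the nuclei in the ketamine mice 26, 27, 25 and 28, and 0.0524%, 0.908% and 3.56% (lowest, median, highest) in the 9 awake mice, so that only awake mouse 29, of the same run, lay within the ketamine range. The means were 8.07% ± 5.24 (SD, n = 4) and 1.15% ± 1.14 (SD, n = 9; exact permutation test, two-sided, p = 0.0056, adjusted p = 0.0168). The adjusted p reached 0.0545 when 1 of the mice 25, 27 or 28 was left out. Clusters of 1 library or run held 521, 183, 166 and 535 of the members in mice 25, 26, 27 and 28 and 135 in mouse 29. The naming set aside any cluster with 50% or more of its nuclei from 1 mouse, a limit chosen after the clusters were seen. Nuclei of such clusters could thus not enter the fibroblast-like share, and that share cannot say whether fibroblasts as a whole differed. Fibroblast-like nuclei made up 0.519% ± 0.245 (n = 4) under ketamine and 0.599% ± 0.477 (n = 9) in awake mice (exact permutation test, p = 0.758, adjusted p = 0.958).

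Under isoflurane the members made up 0.398% ± 0.356 of nuclei (SD, n = 7), against 1.15% ± 1.14 in awake mice, a difference that missed the threshold (exact permutation test, p = 0.0941, adjusted p = 0.141). The fibroblast-like nuclei gave 0.277% ± 0.205 and 0.599% ± 0.477 (exact permutation test, p = 0.117, adjusted p = 0.351), with mice from 0.0743% to 0.605% under isoflurane and from 0.0315% to 1.24% awake. By genotype label, members made up 2.05% ± 3.13 in fAD (n = 9) and 2.45% ± 4.30 in WT (n = 11; permutation test with 100000 resamples, p = 0.807), and 2.87% and 2.66% without mice 11, 14, 17 and 20. Fibroblast-like nuclei made up 0.464% ± 0.433 in fAD (n = 9) and 0.475% ± 0.342 in WT (the same permutation test, p = 0.958). Without those 4 mice the means were 0.6% and 0.488% (n = 6 and 10; p = 0.587 in the same permutation test). The spread between mice of 1 state was thus as wide as the differences between states and genotypes for these nuclei.

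Gene levels under ketamine were compared with awake mice in sums per mouse with the quasi-likelihood test of edgeR, in 1 fit of all groups with Benjamini-Hochberg adjustment and a threshold of 0.05. In all members together 331 of 5118 genes were called (6.47%), 86 higher (1.68%) and 245 lower (4.79%). The basement membrane ligand Npnt (log2 fold change 3.57, SE 0.63), the mesenchymal transcription factor Twist1 (2.63, SE 0.49) and the matricellular Ccn1 (3.21, SE 0.67) were among those higher, and the anion transporter Slc22a8 (-3.70, SE 0.52), Col26a1 (-3.48, SE 0.49) and the metalloprotease Adamts12 (-4.76, SE 0.74) among those lower. Of the listed transporters 8 of 26 tested were lower and 0 higher, with Slc6a20a at -3.42 and Slc7a11 at -2.98, of the retinoic acid genes 3 of 6 were lower (Aldh1a1, Aldh1a2 and Rbp4), and of the laminins and basement membrane genes 4 of 10 were lower and 2 higher. Fibroblast markers outside the rule were lower in 7 of 13 and pial and perivascular markers in 4 of 5, with 0 higher in both lists. Fibroblast-like nuclei were 3.89% to 13.4% of the members in the ketamine mice and 17.9% to 94.1% in the other 16 mice, and their part in these calls was not tested. With the run as a block in the fit, without mice 1 to 4, and without mouse 25 or 28, the count was 0. It was 4 without mouse 2, 48 without mouse 26, 56 without mouse 27, 119, 149 and 167 without mice 13, 10 and 1, and 904 without mouse 29. The split into higher and lower moved as well, to 615 and 466 with no gene filter, 212 and 225 with 5 UMIs or more of the rule genes, and 437 and 467 without mouse 29. Immediate early genes gave 1 call of 18 tested, Egr1 (1.84), which is among the leading genes of cluster 3 from mouse 25. In the fibroblast-like nuclei Egr1 held 18, 1, 1 and 0 UMIs in mice 25 to 28, and 0 of the 45 listed immediate early genes passed the filter there.

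In the fibroblast-like nuclei alone, 38 of 1743 genes were called under ketamine (2.18%), 17 higher (0.975%) and 21 lower (1.2%). The count at an unadjusted p under 0.05 was 293, and DESeq2 called 56. With no gene filter 13 genes were higher and 95 lower, and the split was 12 and 27 without mouse 10, 10 and 3 without mouse 26 and 11 and 5 without mouse 28. Neat1, the long noncoding RNA that builds nuclear paraspeckles (chr19:5824708-5845478, minus strand, GRCm38), stood at 5002, 7047, 4438 and 2939 CPM in mice 25, 26, 27 and 28. It stood between 382 and 1329 CPM in the 11 other mice, with awake mouse 29 the lowest of all. The groups did not overlap, and the log2 fold change was 2.49 (SE 0.40, adjusted p = 0.00876 by edgeR). The tetraspanin Tspan5 stood at 1049, 2496, 1218 and 726 CPM in the ketamine mice and between 268 and 471 CPM in all others (1.44, SE 0.27, adjusted p = 0.0124 by edgeR). Arid5b, a DNA-binding chromatin regulator, stood at 878, 1321, 707 and 363 CPM under ketamine and between 163 and 345 CPM in the awake mice, while isoflurane mouse 3 reached 649 CPM (1.43, SE 0.30, adjusted p = 0.0231 by edgeR). Fibroblast-like nuclei of all 4 ketamine mice were thus above every awake mouse of the fit for these 3 genes, and Arid5b overlapped the isoflurane mice. The share of all 1743 genes above every awake mouse was not counted.

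Of the listed collagens 1 of 8 tested was higher and 0 lower, of the proteoglycans and matrix enzymes 2 of 14 were higher and 1 lower, with medians of -0.39 and -0.23 beside -0.04 over all genes tested, and of the transporters 1 of 20 was lower. Genes of the matrix among those higher were Ccn1 (3.26), Ccn2 (1.56), Svep1 (2.36) and the fibril-associated Col12a1 (1.73). Ccn1 came chiefly from 3 mice, with 805, 294 and 255 CPM in mice 25, 26 and 27, against 18.1 CPM in mouse 28 and 0 to 52.1 CPM in awake mice, while isoflurane mouse 4 reached 188 CPM. Genes of transport and signalling among them were the efflux pump Abcc4 (2.03), the organic anion transporter Slco3a1 (1.33), the calcium channel subunit Cacna1c (1.30) and adenosine kinase (Adk, 1.36). Adk stood at 781, 636, 530 and 308 CPM in mice 25 to 28 and at 142 to 304 CPM in awake mice. The isoflurane mice stood at 182 to 553 CPM and overlapped the ketamine mice. Abcc4 is a leading gene of cluster 7, which held 16.7%, 36.4%, 32.4% and 50% of the fibroblast-like nuclei in mice 25, 26, 27 and 28 and 4.17% to 25% in the other mice of the fit. Its part in these calls was not tested. Genes of the nucleus were the transcriptional coregulator Ifrd1 (2.04) and the chromatin remodeller Chd2 (1.27), and Samd4 (1.45), which binds RNA, and the unnamed Gm37240 (1.33) rose as well. In the nuclei that are not members Cmss1 (2.70), AY036118 (2.25), Ccn1 (2.06), Svep1 (1.05) and Neat1 (0.87) were called higher as well, beside 3.21 and 2.25 for Cmss1 and AY036118 in the fibroblast-like nuclei.

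Genes that fell under ketamine included St6gal1, a sialyltransferase, which stood at 24.4, 0, 118 and 145 CPM in mice 25 to 28 and between 236 and 822 CPM in the others (-2.91, SE 0.51). The matricellular Sparcl1 stood at 48.8, 147, 137 and 127 CPM, against 236 to 495 CPM (-2.07, SE 0.37), and the metalloprotease Adam12 at 244, 489, 373 and 544 CPM, against 909 to 2691 CPM (-1.77, SE 0.35). These 3 genes did not overlap between the ketamine mice and the 11 others. Adamts12 (-2.67), the matrix protein Sned1 (-1.52), the gap junction gene Gjb6 (-2.04) and the dicarboxylate transporter Slc13a3 (-2.03) were also lower. The glycolytic enzyme Aldoc was at 0 in all 4 ketamine mice and at 28 to 241 CPM in the others. It held 8 to 29 UMIs in mice 1 to 4 and 1 to 6 in mice 10, 11, 13, 14, 16, 18 and 29, so its values rest on few UMIs. Ferritin heavy chain (Fth1, -1.87), transferrin (Trf, -2.88) and the myelin gene Mbp (-2.72) fell. Mbp was lowest of all in awake mouse 29 (42.4 CPM), and the oligodendrocyte markers summed to 98.2 to 343 CPM in the ketamine mice, 170 to 1340 CPM in the awake mice and 158 to 830 CPM in the isoflurane mice. In the ketamine and the awake mice the mural markers summed to 97.9 to 878 and 377 to 1824 CPM, the choroid plexus markers to 24.4 to 587 and 130 to 2408 CPM, and the excitatory neuron markers to 72.6 to 295 and 93.2 to 607 CPM. A further 6 of the 21 were mitochondrial genes, among them mt-Co1 (-3.30), which stood at 293 to 925 CPM under ketamine, 658 CPM in mouse 29 and 1065 to 8977 CPM in the others. Of all nuclei's UMIs mitochondrial genes took 0.0353% to 0.0747% in the ketamine mice and 0.0363% to 1.05% in the awake mice. The part of these markers and of the mitochondrial share in the calls was not tested.

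**Figure D3:**
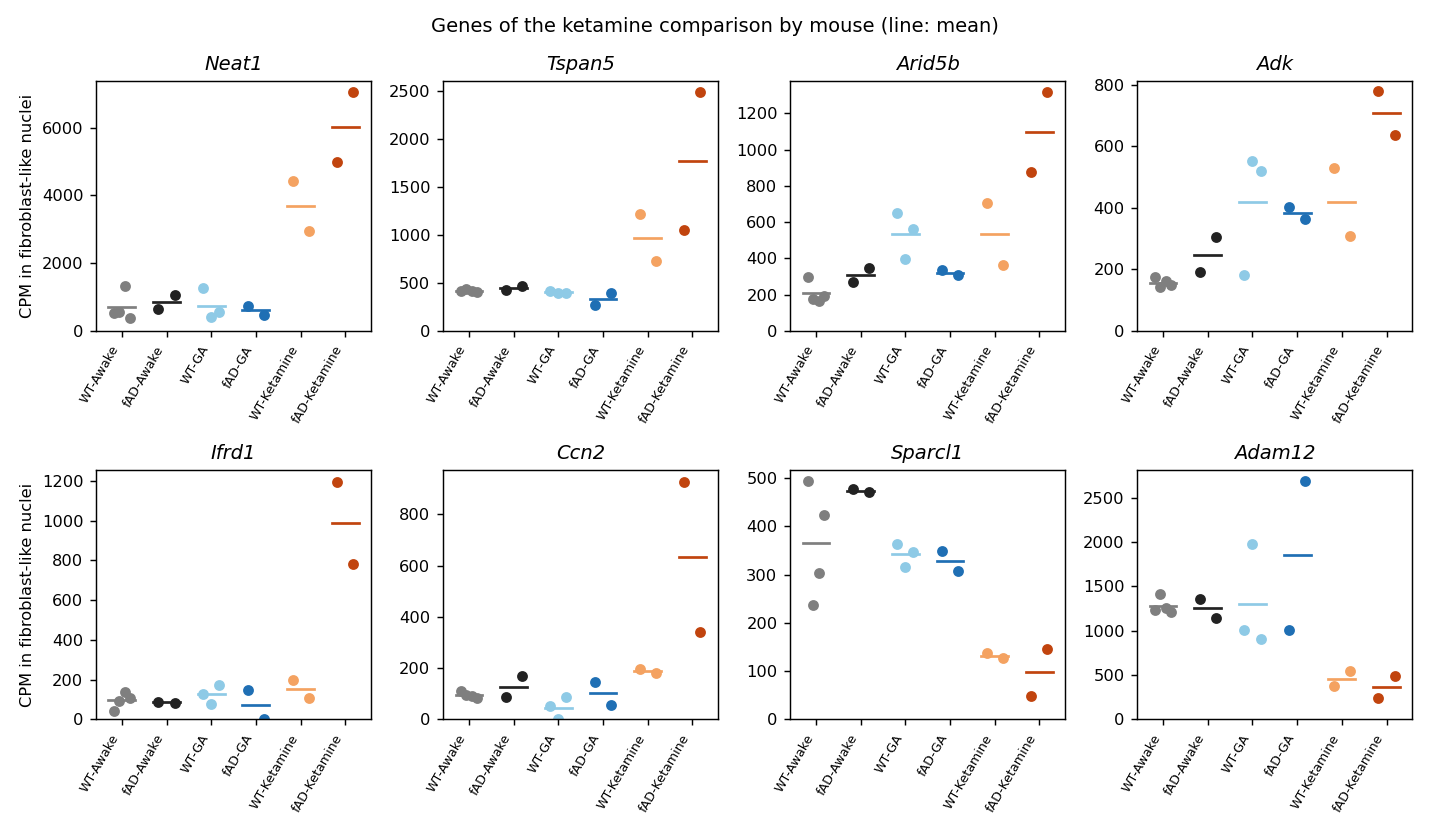
CPM in the fibroblast-like nuclei of each of 15 mice (points) and the group means (lines) for 8 genes called between ketamine and awake mice, by group on a linear axis from 0. The 4 ketamine mice lie above all others for Neat1, Tspan5 and Ccn2 and below all others for Sparcl1 and Adam12; Neat1 runs from 2939 to 7047 CPM in them and up to 1329 CPM elsewhere.

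Mouse 29, awake and of the run that holds the ketamine mice, lay below all 4 ketamine mice for 16 of the 17 higher genes and above all 4 for 17 of the 21 lower genes. It is 1 of the awake mice of the fit, so its side is partly fixed by the calls. Over all 1743 genes it lay below all 4 in 21.4% and above all 4 in 20.4%. Of the 38 genes 12 did not overlap between the ketamine mice and the 11 others. Over all 1743 genes tested the ketamine mice lay above all others in 1.32% and below all others in 0.402%. Ketamine and the run can be told apart only through mouse 29. With the run as a block 0 genes were called, with Neat1 at 3.41 (adjusted p = 0.399 by edgeR), and with clusters drawn at Leiden resolution 1 the count was also 0. At that resolution 494 nuclei were fibroblast-like, since a cluster of 200 nuclei was not named, and mice 16 and 25 had under 10 nuclei and left the fit. The cluster not named was led by Slc7a11, Bmp6, Cp, Ranbp3l, Errfi1 and Neat1, with 41.5% of its nuclei from mice 25 to 29. Its part in the ketamine calls at the first resolution, Neat1 among them, was not tested. The count was 20 without mice 1 to 4, and 0, 2, 2, 13, 16, 17 and 21 without mouse 2, 25, 27, 26, 28, 1 and 13. Slc6a20a, at 599 to 1355 CPM in the ketamine mice and 1358 to 2848 CPM in the others, did not pass the test (-1.18, SE 0.33, adjusted p = 0.0643 by edgeR).

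Of the promoters of the higher genes those of Tspan5, Arid5b and Ccn1 are shown. The first and second were called here and in the comparison with vascular nuclei below. Ccn1 was called in all members and in the fibroblast-like nuclei. That held for 15 genes, higher or lower, with Ccn2 also among them, and Ccn1 was picked from these. Each sequence is the 250 bases before the gene's RefSeq start on the gene's own strand (GRCm38.p6), at chr3:138741958-138742207 (plus strand), chr10:68278727-68278976 (minus strand) and chr3:145649986-145650235 (minus strand). Capitals mark a match on either strand to any of 5 motifs, FOX (TGTTTAC), AP-1 (TGACTCA), CRE (TGACGTCA), TEAD (GGAATG) and C/EBP-ATF (TGATGCAA).
Tspan5: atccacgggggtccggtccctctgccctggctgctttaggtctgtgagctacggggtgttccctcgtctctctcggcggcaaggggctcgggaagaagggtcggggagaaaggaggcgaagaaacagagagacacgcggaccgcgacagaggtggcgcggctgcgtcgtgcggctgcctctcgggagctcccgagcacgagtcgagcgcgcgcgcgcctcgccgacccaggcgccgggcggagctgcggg
Arid5b: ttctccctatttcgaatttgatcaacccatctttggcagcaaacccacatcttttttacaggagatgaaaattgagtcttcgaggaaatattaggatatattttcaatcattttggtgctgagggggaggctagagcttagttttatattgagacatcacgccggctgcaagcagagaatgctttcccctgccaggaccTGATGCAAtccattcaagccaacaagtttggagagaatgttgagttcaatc
Ccn1: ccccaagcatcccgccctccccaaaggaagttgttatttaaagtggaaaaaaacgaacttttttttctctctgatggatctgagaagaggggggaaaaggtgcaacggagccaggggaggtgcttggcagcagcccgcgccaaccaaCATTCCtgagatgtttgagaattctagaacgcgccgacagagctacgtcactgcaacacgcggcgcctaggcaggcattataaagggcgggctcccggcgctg
Arid5b held the C/EBP-ATF letters, 51 bases before the start, as did 0.818% of 27025 promoters of this length. Ccn1 held the TEAD letters on the other strand, 103 bases before the start, as did 12.6% of the promoters, and Tspan5 held none of the 5, of which FOX, AP-1 and CRE were in 3.09%, 4.43% and 1.62% of the promoters. A match of letters is a description and was not tested for binding.

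Isoflurane was compared with awake mice in the same fits. In the fibroblast-like nuclei 0 of 1743 genes were called (0%), 123 had an unadjusted p under 0.05, and DESeq2 called 0. In all members the counts were 0 of 5118, 239 and 0. The smallest unadjusted p belonged among the higher genes to the cytoskeletal Shroom2 (1.32, SE 0.29, adjusted p = 0.369 by edgeR) and the transcription factor Stat3 (1.41, SE 0.33), and among the lower genes to the mitochondrial kinase Nadk2 (-1.82, SE 0.45) and Rapgef5 (-2.46, SE 0.64). Shroom2 stood at 285, 322, 364, 553 and 519 CPM in isoflurane mice 3, 4, 11, 16 and 18 and at 63.7 to 251 CPM in the awake mice, without overlap, and did not pass the test. It was picked by its unadjusted p, and the share of all 1743 genes without overlap between these states was not counted. None of the 13 lists of fibroblast genes held a call. The transporters had a median log2 change of 0.11 over 20 genes, the collagens 0.21 over 8, the laminins -0.06 over 6 and the transcription factors -0.28 over 22, beside -0.03 over all genes tested. The 9 glucocorticoid response genes tested had a median of 0.03, with Fkbp5, a glucocorticoid-induced chaperone partner, at 0.03 (SE 0.44). Bmp6 (0.76, SE 0.33), Lama1 (0.84, SE 0.39) and Aldh1a2 (0.95, SE 0.40) lay above 0 with unadjusted p of 0.0325, 0.0433 and 0.0267 and adjusted p from 0.659 to 0.678 by edgeR. Their lists were mixed, with a positive log2 change in 4 of 8 BMP, TGF-beta and Wnt genes, 2 of 6 laminins and 3 of 4 retinoic acid genes. So it was in 2 of 11 fibroblast markers outside the rule, 0 of 3 arachnoid, 2 of 3 pial and perivascular and 2 of 3 dural markers, and in 811 of all 1743 genes.

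Cells of the vessel wall were compared in the same way, but over all 20 mice, against 15 in the fit of the fibroblast-like nuclei. Endothelial and mural nuclei numbered 870 (705 by endothelial and 416 by mural genes, with overlap). Mice gave 10 to 302 of them (median 25), the most from fAD-Awake mouse 10. In these nuclei 64 of 1767 genes were called between isoflurane and awake mice (3.62%), 56 of them higher under isoflurane. Of these 56, 26 could be tested in the fibroblast-like nuclei, where 15 had a positive log2 change and 3 an unadjusted p under 0.05, among which Fbxl7 was lower under isoflurane (-0.80, SE 0.35). Over all 1743 genes tested there 46.5% had a positive log2 change and 7.06% an unadjusted p under 0.05. Akap12, a scaffold for protein kinase A, stood in the vascular nuclei at 2719, 3172, 770, 1100, 1040, 882 and 827 CPM in the isoflurane mice 3, 4, 11, 15, 16, 18 and 20 and between 89.6 and 259 CPM in the 9 awake mice. In the fibroblast-like nuclei it stood at 285, 295, 449, 237 and 173 CPM in isoflurane mice and between 154 and 413 CPM in awake mice. The groups were far apart in the first and overlapped in the second.

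Whether the response differed was tested as an interaction in 1 edgeR fit over both kinds of nuclei of the same mice, with the mouse as a block. For isoflurane, 6 of 1880 genes were called (0.319%), of which 4 also passed the count filter in the fibroblast-like nuclei. In these 4 the change was lower in the fibroblast-like than in the vascular nuclei. The 6 were Akap12 (difference of log2 changes -3.07, SE 0.61, adjusted p = 0.0265), Neat1 (-2.69, SE 0.56, adjusted p = 0.033), the ubiquitin ligase subunit Fbxl7 (-2.32, SE 0.45), the transcription factor Klf7 (-2.67, SE 0.58), the metalloprotease Adamts9 (-3.86, SE 0.86) and Cdc42ep3 (-4.17, SE 0.94). Adamts9 and Cdc42ep3 were below the count filter in the fibroblast-like nuclei and entered through the vascular nuclei. They held 0 to 10 and 0 to 2 UMIs per isoflurane mouse and 4 to 12 and 1 to 5 per awake mouse in the fibroblast-like nuclei, and Klf7 0 to 6 and 4 to 18, so their values rest on few UMIs. Neat1 stood in vascular nuclei at 380 to 1304 CPM under isoflurane and 48.5 to 284 CPM awake, and in fibroblast-like nuclei at 395 to 1271 CPM and 382 to 1329 CPM. Fbxl7 stood in fibroblast-like nuclei at 519 to 869 CPM under isoflurane and 860 to 1855 CPM awake, and in vascular nuclei at 204 to 614 CPM and 82.9 to 358 CPM, so that isoflurane mice were at the low end in the first and at the high end in the second, with overlap in both. With all members in place of the fibroblast-like nuclei 10 of 3878 genes were called (0.258%), among them Akap12 (-3.05, adjusted p = 0.002 by edgeR) and Adamts9, and 1 to 6 when any 1 mouse was left out. Without mice 1 to 4, or without mouse 4, 10, 13 or 14, 0 genes were called in the fibroblast-like nuclei, and the count was 2, 3 and 11 without mice 11, 29 and 25. Akap12 kept its sign in all 21 alternatives that tested it there, from -3.66 to -2.42, and was called in 15. Without the mouse as a block 3 genes were called in the fibroblast-like nuclei, Akap12, Neat1 and Fbxl7, and 0 in all members, where Akap12 was at -3.24 (adjusted p = 0.0549 by edgeR).

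**Figure D4:**
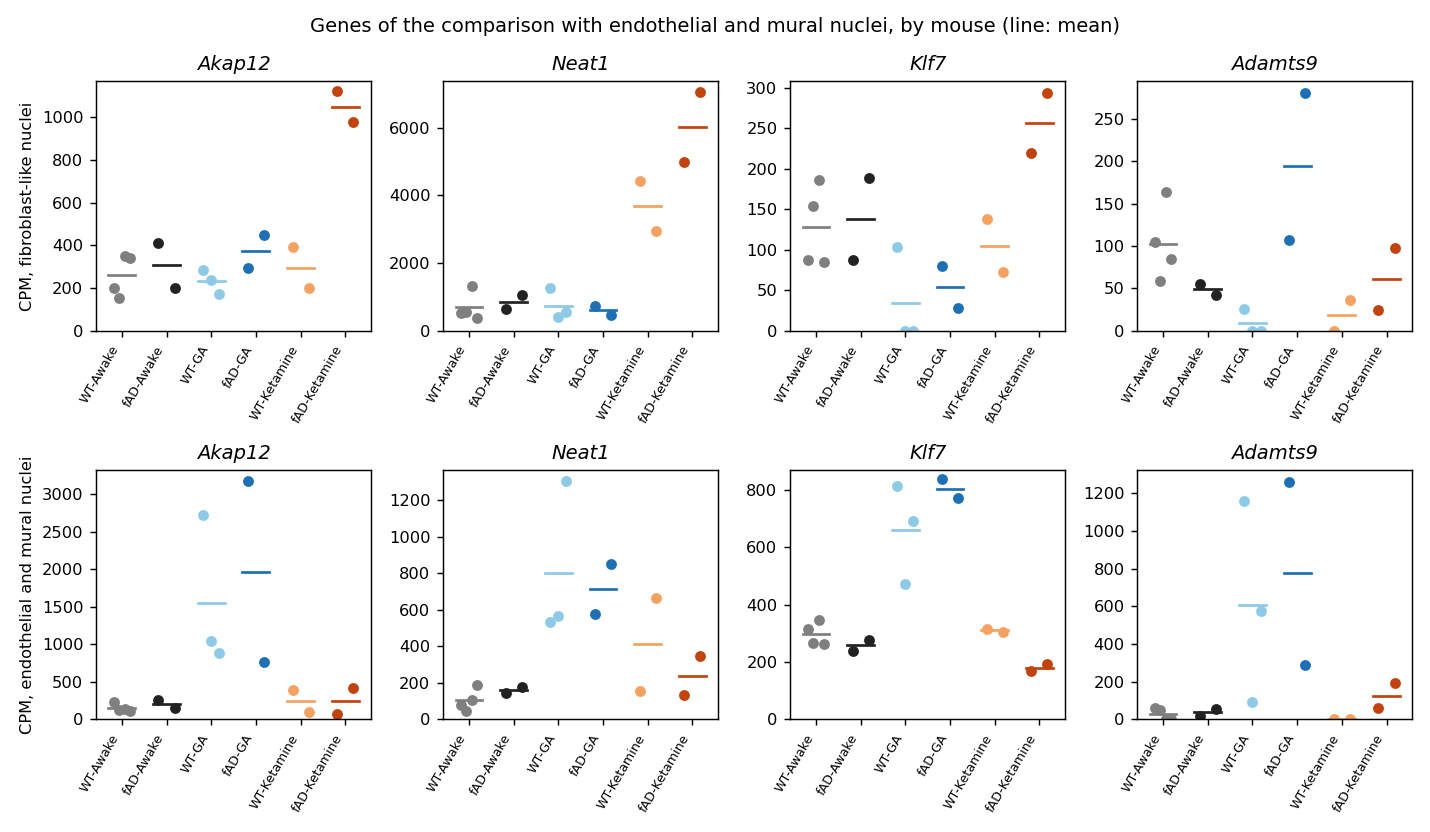
CPM by mouse (points) and group means (lines) for Akap12, Neat1, Klf7 and Adamts9 in the fibroblast-like nuclei (upper row) and in the endothelial and mural nuclei (lower row), on linear axes from 0. Akap12 in vascular nuclei lies between 770 and 3172 CPM in isoflurane mice and up to 259 CPM in awake mice, and in fibroblast-like nuclei the states overlap.

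For ketamine the same test called 6 of 1880 genes (0.319%), of which 4 also passed the count filter in the fibroblast-like nuclei. In these 4 the change was higher in the fibroblast-like nuclei. The 6 were the taurine transporter Slc6a6 (3.12, SE 0.57, adjusted p = 0.0157 by edgeR), the arginine transporter Slc7a1 (4.96, SE 0.96), Arid5b (2.97, SE 0.59), the RNA-binding Rbpms (2.82, SE 0.57), Tspan5 (2.21, SE 0.48) and the tubulin Tubb5 (4.16, SE 0.93). Slc6a6 stood at 171, 440, 196 and 453 CPM in fibroblast-like nuclei of mice 25 to 28 and 43.4 to 256 CPM in awake mice, and in vascular nuclei at 96.2 to 615 CPM and 456 to 1133 CPM. The vascular values of mice 25, 26, 27 and 28 rest on only 24, 25, 10 and 15 nuclei. Slc7a1 rested on mouse 25 (317 CPM), with 0 to 39.3 CPM in the other ketamine mice. Slc7a1 and Tubb5 were below the count filter in the fibroblast-like nuclei, with 27 and 74 UMIs there over all 15 mice. With all members 133 of 3878 genes were called (3.43%), 111 of them higher, again with the nuclei of clusters of 1 library or run among them. In the fibroblast-like nuclei the count was 0 without mice 1 to 4 and without mouse 2 or 25, and 3 without mouse 1, 14, 16, 26 or 27. Without the mouse as a block it was 2, Tspan5 and Arid5b, and 9 with all members. With all members it was 1 without mice 1 to 4 and without mouse 1 or 25, 23, 26 and 66 without mice 27, 2 and 10, and 288 without mouse 29. The ketamine and isoflurane comparisons share their awake mice, so their values are given side by side: Neat1 changed by 2.49 under ketamine and by -0.14 (SE 0.39) under isoflurane in the fibroblast-like nuclei, and by 1.10 (SE 0.44, adjusted p = 0.271) and 2.34 (SE 0.37, adjusted p = 0.002 by edgeR) in the vascular nuclei.

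For genotype as labelled, 0 of 5118 genes were called in all members (0%) and 0 of 1743 in the fibroblast-like nuclei (0%), with 79 and 82 at an unadjusted p under 0.05, and DESeq2 called 1 and 0. In awake mice alone, under isoflurane alone and in the interaction of genotype with isoflurane the counts were also 0 in both sets of nuclei, with 71, 143 and 127 genes at an unadjusted p under 0.05 in the members and 36, 62 and 39 in the fibroblast-like nuclei. Without mice 11, 14, 17 and 20 all 8 counts were again 0, with 282 and 117 genes at an unadjusted p under 0.05 for the genotype comparison. Prnp had the smallest unadjusted p among the higher genes in the members (1.66, SE 0.38, adjusted p = 1 by edgeR) and was at 1.54 (SE 0.49) in the fibroblast-like nuclei. It stood there at 302, 268, 262, 56.1, 97.6 and 196 CPM in the mice labelled fAD, 2, 4, 10, 11, 25 and 26, and at 0 to 285 CPM in those labelled WT, so that the labels overlapped. App was at 0.37 (SE 0.26) and was not called. The smallest unadjusted p among the other genes of the fibroblast-like nuclei belonged to Errfi1 (1.50, SE 0.38), a feedback inhibitor of EGF receptor signalling, and Akap12 (0.93, SE 0.28) above 0 and to the choline phosphotransferase Chpt1 (-1.68, SE 0.49) below 0. In all members the lower side was led by Igfbp5 (-1.95, SE 0.48) and the matrix proteins Ecm2 (-1.55, SE 0.40) and Ltbp1 (-1.73, SE 0.47), none of them called. The common biological coefficient of variation between mice was 0.348 in the fibroblast-like nuclei and 0.463 in all members.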

How the data were processed

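Hippocampal nuclei of 20 mice were sequenced on the 10x platform. The deposited values are raw UMI counts for each nucleus, which the authors had not normalized. The methods name Cell Ranger with introns and an mm10 transcriptome, then CellBender, at least 200 genes per nucleus, DoubletFinder and Harmony, the submitters' processing notes Cell Ranger 5.0.0, and the file headers Cell Ranger only, so whether CellBender had been applied is not known. Groups come from the sample labels, and the series' design text gives other numbers of mice for 4 of the 6 groups. The kit version differs between labels and methods.

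Members were found by the rule and their UMI counts summed per mouse. Doublets were scored per library against simulated pairs (0.8% per 1000 nuclei). Members were clustered (Leiden resolution 0.6, leidenalg 0.10.2, scikit-learn 1.9.0). A cluster was named fibroblast-like when at least 3 fibroblast markers outside the rule were detected in 10% of its nuclei, its 10 leading genes held at least 1 such marker or arachnoid, pial or dural marker and more fibroblast markers than markers of any other class, and under 50% of its nuclei came from 1 mouse. Otherwise it was counted as of 1 library or run when 90% of its nuclei came from there, and the remaining clusters form no class of their own. The limits of 50% and 90% were set after the clusters were seen. Sums entered quasi-likelihood tests of edgeR 4.0.16 under R 4.3.3, after filterByExpr and TMM, with Benjamini-Hochberg adjustment and a threshold of 0.05, for mice with at least 10 nuclei: 17 mice for all members (mice 15, 17 and 19 dropped) and 15 for the fibroblast-like nuclei (also without 12 and 20). Endothelial and mural nuclei of all 20 mice were fitted alone, and those of the same 17 or 15 mice entered the interaction, with the mouse as a block. DESeq2 1.42.0 was an alternative. CPM scale the UMIs of the nuclei named to a common total, with a pseudocount of 10 CPM in log2 differences from other nuclei. Intervals are exact binomial (95%) and cover counting error only. Shares were compared by exact permutation, or 100000 resamples with 9 against 11 mice (scipy 1.17.1, numpy 2.4.6).

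Named genes are, per comparison, up to 15 called genes per direction with the smallest adjusted p, or the genes of smallest unadjusted p where fewer than 5 were called, with members of the gene lists and Prnp and App. Members, lists and tests were chosen with earlier results of these data known. Alternatives are given in the closing section. A further gene is not reported here.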

Additional observations from a re-analysis of the deposited data

Results flagged for a closer look

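Among 24 checks for a mouse that stands apart within its group, 2 were past Dixon's limit, and chance gives about 1 in 20. The percentage of nuclei that are members was 3.56 in WT-Awake mouse 29, with a gap to the next mouse of 0.672 of the group's range. This mouse shares its run with the ketamine mice, and 135 of its 205 members lay in clusters of 1 library or run. Dcn stood at 1572 CPM in the fibroblast-like nuclei of WT-Awake mouse 13, a gap of 0.853 of the range to the other 3 mice of its group in the fit, at 1103 to 1172 CPM.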

How the results depend on the processing

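Apart from single mice left out, 139 values kept their direction and their side of the threshold or stayed within 1.5 times the count, 39 moved and 4 reversed; the cause was not tested beyond what a setting itself removes (genes, nuclei or mice). Without a gene filter the calls in all members were 21 for isoflurane, 1081 for ketamine, 5 for genotype, 33 for genotype awake, 13 for genotype under GA and 20 for its interaction with isoflurane, and in the fibroblast-like nuclei 1, 108, 2, 4 and 1 for the first 5. In the comparison with vascular nuclei they were 330 for ketamine in all members and 17 for isoflurane in the fibroblast-like nuclei. For ketamine in all members DESeq2 called 555 genes, genes in 10% of nuclei gave 144, and the run block and leaving out mice 1 to 4 each gave 0. DESeq2 called 1 gene for genotype, and 5 UMIs or more of the rule genes gave 1 for genotype awake. In the fibroblast-like nuclei ketamine gave 0 with the run block, 0 at Leiden resolution 1, 20 without mice 1 to 4 and 71 with only the groups compared, and without mice 1 to 4 genotype gave 2, genotype awake 3 and genotype under GA 3. Against vascular nuclei, isoflurane in all members gave 2 with RLE normalization, 0 with 5 UMIs or more and 1 without mice 1 to 4, and in the fibroblast-like nuclei 3 without doublets and 0 without mice 1 to 4. Ketamine gave 248 with 5 UMIs or more, 88 without doublets and 1 without mice 1 to 4 in all members, and 0 without mice 1 to 4 in the fibroblast-like nuclei. With no replicate block (no mouse term, chosen after seeing the data) the comparison with vascular nuclei gave 0 for isoflurane and 9 for ketamine in all members, and 3 and 2 in the fibroblast-like nuclei.

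The share difference of fAD against WT turned to 0.213 percentage points for members and 0.111 for fibroblast-like nuclei without mice 11, 14, 17 and 20. That of ketamine against awake in fibroblast-like nuclei turned to 0.0797 without mice 1 to 4 and to 0.51 on the log2 scale. Among named genes, Samd4 turned to -0.30 at Leiden resolution 1 and Mbp to 0.18 with the run block, both in the ketamine comparison. Leaving out 1 mouse at a time, the ketamine calls ran from 0 to 904 in all members and from 0 to 55 in the fibroblast-like nuclei, the comparison with vascular nuclei from 1 to 6 (isoflurane) and 1 to 288 (ketamine) in all members and from 0 to 11 and 0 to 7 in the fibroblast-like nuclei, and the isoflurane and genotype awake calls in the latter from 0 to 1. Share differences ran from 4.77 to 8.67 points for ketamine, -0.89 to -0.452 for isoflurane and -1.39 to 0.808 for genotype in members, and from -0.166 to 0.0114, -0.392 to -0.241 and -0.108 to 0.0485 in fibroblast-like nuclei. Between groups no paired analysis was possible because every mouse number occurs in 1 group only, and which mice shared a tissue batch is not given in the sources used here; the run of mouse numbers was tried as a block. The comparison with vascular nuclei is paired within mouse and had the mouse as a block. Few fibroblast-like nuclei per mouse (3 to 110) limit the depth of each sum, and genes below the filter were not tested.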
